A study of Mus musculus with 12 samples.

Results

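The Th17 and type 3 cytokine genes described here are 9 genes chosen by name: the cytokines Il17a, Il17f and Il22, the receptors Il23r, Il1r1 and Ccr6, and the transcription factors Rora, Ahr and Maf. All 9 were among the 19434 genes of the count table, and all 9 were among the 11062 genes that passed a filter on low counts. Il17a and Il17f had no library above the level of that filter (1.41 CPM, counts per 1000000 counts of the library) after PBS, so they entered the test through the E. coli libraries and could hardly have passed it without a difference. The other 7 genes had at least 3 libraries above it after PBS. For Il22 these 3 were all neonatal, and no juvenile PBS library reached that level. The RNA came from CD4+ T cells of the lungs of male and female C57BL/6NJ mice, an inbred strain. The mice had aspirated either 2800000 colony-forming units of E. coli or PBS, the vehicle. Aspiration took place on day 5 of life in neonates and on day 15 in juveniles, and the cells were isolated 48 hours later by magnetic bead pre-enrichment and cell sorting. There were 4 groups of 3 libraries, each library made from a pool of 3 neonatal or 2 juvenile mice, with PBS and E. coli groups at both ages. All groups shared the strain and no group carried an engineered allele, per the labels. The p-values below measure the spread between these pools, so differences between single mice within a pool cannot be seen.

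Th17 cells are helper T cells that secrete IL-17A, IL-17F and IL-22, cytokines that call neutrophils to an infected mucosa and strengthen the epithelial barrier. IL-23 and IL-1, sensed through the receptors encoded by Il23r and Il1r1, expand and sustain these cells. The nuclear receptor RORα (Rora), the ligand-activated factor AHR and the factor c-MAF help to control their genes. In the lung the same cytokines also come from γδ T cells and type 3 innate lymphoid cells, and Rora, Ahr and Maf are active in several other helper, regulatory and innate lymphocytes.

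Library totals ran from 6035445 to 8129983 counts. In a library of that size 3 counts, the number used as the detection floor, corresponded to 0.374 to 0.494 CPM. Marker genes of CD4+ T cells (5 of the 6 listed were in the table, among them Cd4 and Cd3e) summed to between 3053 and 4026 CPM in every library, which fits the label of the sorted cells. Neonatal PBS library 1 and juvenile PBS library 2 stood apart from their groups by genes of immature T cells, 567 and 373 CPM against 49.9 to 148 CPM in the other PBS libraries. Each result was also computed without both. In bulk RNA a smaller number of cells of a type and less RNA per cell cannot be told apart.

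Promoter windows of 300 bases, from 250 bases before to 50 bases after the start of transcription, were taken from RefSeq (GRCm38.p6). Entries were found for 7 of the 9 genes, all but Ahr and Maf. The windows of the 3 cytokines and of Il23r are shown because these genes had the lowest PBS levels in juveniles and the steepest juvenile changes with E. coli. They read 5′ to 3′ in the direction of the gene, in GRCm38 coordinates, with motif matches in capitals.
Il17a (cytokine), chr1:20730655-20730954, plus strand: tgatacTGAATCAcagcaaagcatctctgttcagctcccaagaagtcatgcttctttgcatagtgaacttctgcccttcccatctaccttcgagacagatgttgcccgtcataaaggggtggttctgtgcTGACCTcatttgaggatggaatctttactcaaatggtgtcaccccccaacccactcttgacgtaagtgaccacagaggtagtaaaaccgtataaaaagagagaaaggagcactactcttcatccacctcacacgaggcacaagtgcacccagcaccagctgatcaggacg
Il17f (cytokine), chr1:20784221-20784520, minus strand: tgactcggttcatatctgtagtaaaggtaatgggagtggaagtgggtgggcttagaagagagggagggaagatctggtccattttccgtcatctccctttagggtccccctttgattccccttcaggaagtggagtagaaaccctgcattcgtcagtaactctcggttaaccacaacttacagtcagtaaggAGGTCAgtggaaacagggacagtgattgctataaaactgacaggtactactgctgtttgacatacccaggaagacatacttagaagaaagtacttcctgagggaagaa
Il22 (cytokine), chr10:118204714-118205013, plus strand: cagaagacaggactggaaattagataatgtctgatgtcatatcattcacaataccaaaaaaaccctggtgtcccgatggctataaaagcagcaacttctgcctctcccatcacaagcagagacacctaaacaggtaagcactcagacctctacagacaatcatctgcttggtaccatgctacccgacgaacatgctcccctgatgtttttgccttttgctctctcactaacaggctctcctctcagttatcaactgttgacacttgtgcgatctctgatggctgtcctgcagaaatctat
Il23r (receptor), chr6:67491806-67492105, minus strand: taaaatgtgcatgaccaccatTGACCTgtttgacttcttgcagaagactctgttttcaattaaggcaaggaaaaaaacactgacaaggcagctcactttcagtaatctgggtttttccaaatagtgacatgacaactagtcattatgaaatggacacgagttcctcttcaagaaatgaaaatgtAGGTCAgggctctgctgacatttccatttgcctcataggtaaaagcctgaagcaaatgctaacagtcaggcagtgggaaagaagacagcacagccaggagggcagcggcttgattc
The motifs searched, on both strands, were AGGTCA, the core bound by RORα, then GCGTG, the core bound by AHR, TTCNNNGAA, bound by STAT factors, and TGANTCA, bound by AP-1 factors. No 2 matches in these 4 windows overlapped. AGGTCA, written TGACCT where it lies on the opposite strand, occurred in Il17a, Il17f and Il23r, and Il23r held 2 copies. Il17a also held an AP-1 match, TGAATCA. The Il22 window held none of the 4 motifs. Among the 7 genes with a window, 4 held AGGTCA, 2 held GCGTG, 1 held TTCNNNGAA and 1 held TGANTCA. A gene was counted if any of its windows matched, and Il1r1 and Ccr6 had 2 windows each. The shares that follow are per window, a different unit. Over all 32851 mouse promoter windows of the same length the shares were 16.3%, 32.4%, 8.30% and 7.81%, so AGGTCA and GCGTG are common strings and a match describes the letters only.

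The cytokine genes lie at 2 loci. Il17a (ENSMUSG00000025929.4, chr1:20730905-20734496, plus strand) and Il17f (chr1:20777146-20790617, minus strand) face each other across a gap of 42649 bases, and Il22 (chr10:118204942-118210047, plus strand) lies 79581 bases from Iltifb, a near-identical copy (GRCm38, GENCODE M21). The longest transcripts of Il22 and Iltifb agreed at 97.4% of positions. The division of reads between the 2 copies is therefore uncertain, and Iltifb held 3 counts in the juvenile E. coli libraries and 0 in all others.

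Il17a was counted only after E. coli. It had 0 counts in each of the 6 PBS libraries, 8, 16 and 8 counts in the neonatal E. coli libraries and 17, 21 and 23 in the juvenile ones, or 1.02, 1.99 and 1.15 CPM against 2.14, 2.90 and 2.92 CPM. The E. coli groups did not overlap with each other, the juvenile libraries being higher. Against the floor of 3 counts per PBS library, Il17a was at least 3.08-fold higher after E. coli in neonates (adjusted p = 0.0173) and at least 5.67-fold higher in juveniles (adjusted p = 0.00038). These adjusted p-values, like all below, are from edgeR's quasi-likelihood test with Benjamini-Hochberg adjustment over all genes. The neonatal call rested on few counts and was lost when any 1 neonatal PBS library or neonatal E. coli library 2 was left out (adjusted p 0.0525 to 0.0859). Between ages after E. coli, the log2 difference of neonates minus juveniles was -0.92 ± 0.46 (SE) and did not pass the test (adjusted p = 0.201).

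Il22, whose product acts on epithelial cells, was the most abundant of the 3 cytokine transcripts. Neonatal PBS libraries held 28, 15 and 28 counts (4.16, 2.08 and 4.57 CPM), whereas juvenile PBS libraries held 0, 2 and 0. After E. coli the neonatal libraries reached 14.0, 13.2 and 11.7 CPM and the juvenile libraries 7.67, 7.6 and 6.74 CPM. The 4 groups did not overlap, in the order neonatal E. coli, juvenile E. coli, neonatal PBS, juvenile PBS. Il22 rose with E. coli by 1.86 ± 0.30 on the log2 scale in neonates (adjusted p = 0.00508), from 3.61 ± 1.34 to 13 ± 1.21 CPM (SD, n = 3), a 3.6-fold increase. In juveniles it rose from 2 counts in all to 169 (adjusted p = 3.86e-06), a ratio with an exact 95% counting interval of 19.3 to 588. Such intervals of ratios, here and below, cover counting error only and not the spread between pools. It was also higher in neonates than in juveniles after PBS, with a ratio of 34.1 (exact interval 9.11 to 287, adjusted p = 0.000521). After E. coli the age difference was smaller, 1.77-fold (log2 0.82 ± 0.27, adjusted p = 0.0487). That last call lay at the threshold and was lost in 8 of 15 alternative analyses, among them each that left out 1 of the 6 E. coli libraries, with an adjusted p of up to 0.159.

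Il17f was near the floor. Neonatal libraries held 7, 2 and 1 counts after PBS and 15, 20 and 7 after E. coli, and juvenile libraries held 0, 0 and 1 after PBS and 5, 18 and 15 after E. coli. The neonatal groups overlapped, at 0.163 to 1.04 CPM after PBS and 1.01 to 2.49 CPM after E. coli, and the log2 change of 1.83 ± 0.70 did not pass the test (adjusted p = 0.293). The juvenile groups did not overlap, and Il17f rose there with a ratio of 31.8 (exact interval 5.37 to 1287, adjusted p = 0.00533). After E. coli the means were close, 1.81 ± 0.749 CPM in neonates and 1.67 ± 0.95 CPM in juveniles, with a log2 difference of 0.13 ± 0.58 (adjusted p = 0.909) whose error leaves room for a difference in either direction.

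The shares of the 3 cytokine transcripts are given as a description. With PBS the 3 genes summed to 4.10 ± 1.52 CPM in neonates and 0.163 ± 0.165 CPM in juveniles, and with E. coli to 16.2 ± 2.06 and 11.7 ± 1.28 CPM. After E. coli, Il17a supplied 6.02%, 11.3% and 8.33% of the 133, 142 and 96 cytokine counts in neonates, with exact Clopper-Pearson 95% intervals reaching from 2.63% to 17.6% over the 3 libraries. In juveniles it supplied 20.5%, 22.3% and 25.3% of 83, 94 and 91 counts, with intervals reaching from 12.4% to 35.5%. Every juvenile share lay above every neonatal share, although the intervals of some libraries overlapped. Il22 made up 82.7%, 74.6% and 84.4% in neonates and 73.5%, 58.5% and 58.2% in juveniles. These intervals cover counting error only, no test was run on the shares, and the level of Il17a itself did not pass the test between ages.

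**Figure D1:**
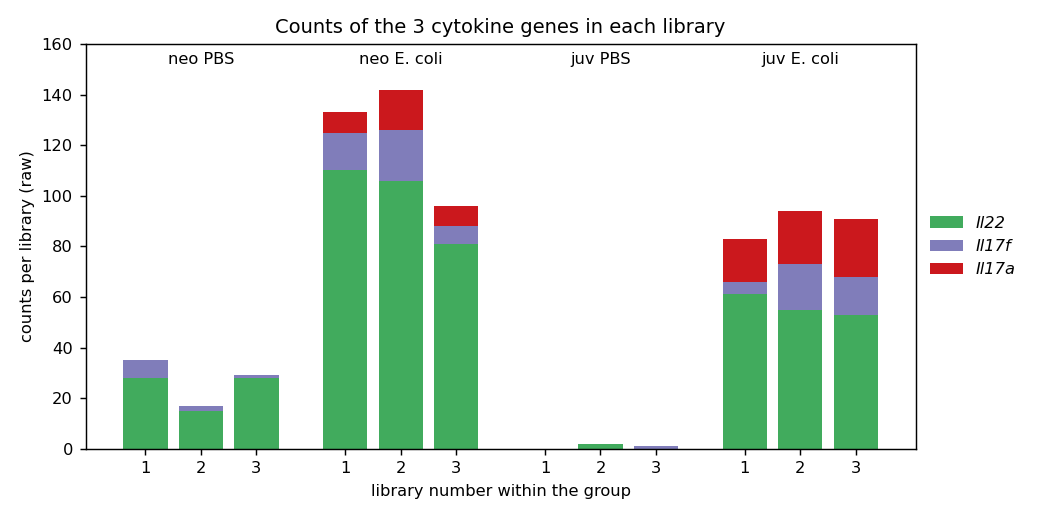
Stacked bars of the raw counts of Il22, Il17f and Il17a in each of the 12 libraries (vertical axis, counts per library; horizontal axis, library number within its group). No PBS library shows an Il17a segment, juvenile PBS libraries hold 0 to 2 counts of Il22 against 15 to 28 in neonatal PBS, and Il17a takes a larger part of the bar in juvenile than in neonatal E. coli libraries.

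Il23r and Il1r1, the receptors for IL-23 and IL-1, were highest in neonatal E. coli libraries, as Il22 was. Il23r (chr6:67422932-67491855, minus strand) encodes the chain specific to IL-23. Neonates had 4.76, 3.75 and 9.15 CPM after PBS and 14.0, 11.6 and 9.65 CPM after E. coli, and juveniles had 2.02, 2.31 and 0.638 CPM after PBS and 9.05, 9.39 and 6.35 CPM after E. coli. Neonatal E. coli libraries were the highest and juvenile PBS libraries the lowest, while neonatal PBS and juvenile E. coli overlapped. Il23r rose in juveniles by 2.30 ± 0.40 on the log2 scale (adjusted p = 0.0007). In neonates the change of 1.01 ± 0.33 did not pass the test (adjusted p = 0.191), although the groups did not overlap. After PBS it was 3.56-fold higher in neonates (log2 1.8 ± 0.42, adjusted p = 0.0228), a call lost in 5 of 15 alternative analyses with an adjusted p of up to 0.11, among them those without neonatal or juvenile PBS library 1 or 3.

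Il1r1 (chr1:40225080-40317257, plus strand), the signalling receptor for IL-1, measured 11.7, 4.58 and 14.7 CPM in neonatal PBS and 33.6, 25.3 and 30.4 in neonatal E. coli libraries. In juveniles it measured 3.31, 6.43 and 4.30 CPM after PBS and 14.1, 24.7 and 19.8 after E. coli. The PBS groups overlapped with each other, and the neonatal E. coli libraries lay above all others. Il1r1 rose in both ages, by 1.54 ± 0.31 on the log2 scale in neonates (adjusted p = 0.022) and by 2.07 ± 0.35 in juveniles (adjusted p = 0.000571). Leaving out any of 4 single neonatal libraries (PBS 1 or 2, E. coli 1 or 3) lost the neonatal call (adjusted p 0.0512 to 0.0794).

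Ccr6 (chr17:8236043-8257141, plus strand), the receptor that draws Th17 cells towards CCL20, varied least among the receptors. PBS libraries had 5.06, 4.03 and 8.82 CPM in neonates and 5.04, 6.43 and 4.78 CPM in juveniles, and E. coli libraries had 8.81, 8.23 and 10.7 CPM in neonates and 12.1, 12 and 10.8 CPM in juveniles. The PBS groups overlapped, the neonatal groups overlapped by neonatal PBS library 3, and the juvenile E. coli libraries were the highest. Ccr6 rose in juveniles by 1.1 ± 0.25 (log2, adjusted p = 0.00523), and the neonatal change of 0.64 ± 0.25 did not pass the test (adjusted p = 0.312).

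**Figure D2:**
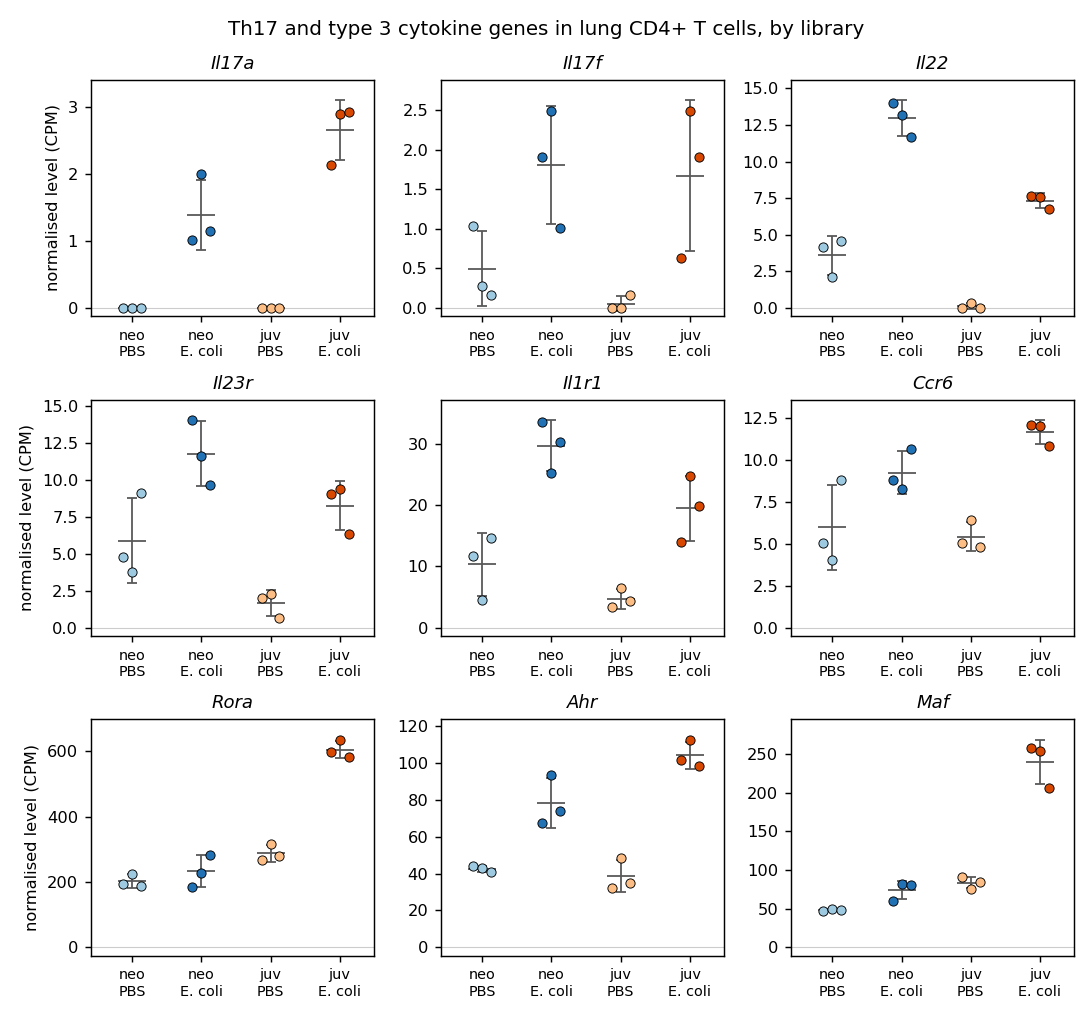
Level of each of the 9 genes in each library in CPM, 1 panel per gene, with points for libraries, a horizontal line for the group mean and bars for its SD (neo, neonatal, and juv, juvenile). Il22, Il23r and Il1r1 are highest in neonatal E. coli libraries, whereas Rora, Ahr and Maf are highest in juvenile E. coli libraries.

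The 3 transcription factors were highest in juvenile E. coli libraries. Rora and Maf, unlike the other 7 genes, had higher means in juvenile PBS than in neonatal E. coli libraries. Rora (chr9:68653786-69388246, plus strand) had 194, 226 and 186 CPM after PBS and 186, 229 and 283 CPM after E. coli in neonates, against 267, 317 and 278 CPM after PBS and 598, 634 and 584 CPM after E. coli in juveniles. The juvenile E. coli libraries were above all others, and neonatal E. coli overlapped with both PBS groups. Rora rose 2.11-fold in juveniles (log2 1.07 ± 0.13, adjusted p = 2.46e-05). In neonates the log2 change was 0.20 ± 0.13 and did not pass the test (adjusted p = 0.596). It was lower in neonates after PBS (log2 -0.51 ± 0.13, adjusted p = 0.0332) and after E. coli (log2 -1.38 ± 0.13, adjusted p = 3.46e-06). The call after PBS was lost in 6 of 15 alternative analyses, with an adjusted p of up to 0.168, among them those without any 1 juvenile PBS library or neonatal PBS library 1 or 3.

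Maf (chr8:115682942-115707794, minus strand), which drives Il10 and several helper T cell programs besides Th17, ordered the groups in the same way. From PBS to E. coli, neonates went from 47.1, 49.4 and 47.9 CPM to 60.5, 81.9 and 80.04 CPM, and juveniles from 90.6, 76.0 and 84.5 CPM to 257, 254 and 206 CPM. Neonatal E. coli overlapped with juvenile PBS, and the other neighbours in that order did not overlap. Maf rose in both ages, 1.54-fold in neonates (log2 0.62 ± 0.13, adjusted p = 0.0231) and 2.86-fold in juveniles (log2 1.51 ± 0.12, adjusted p = 1.22e-06). The neonatal call was lost in 6 of 15 alternative analyses, with an adjusted p of up to 0.128, among them those without any 1 neonatal PBS library or neonatal E. coli library 2 or 3. Maf was lower in neonates both after PBS (log2 -0.80 ± 0.13, adjusted p = 0.00272) and after E. coli (log2 -1.69 ± 0.12, adjusted p = 1.25e-06).

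Ahr (chr12:35497974-35535038, minus strand), which binds dietary and microbial ligands and activates Il22, rose in both ages and overlapped between ages after PBS. It measured 44.0, 42.8 and 40.8 CPM in neonates and 32.3, 48.3 and 34.9 in juveniles after PBS (log2 difference 0.15 ± 0.15, adjusted p = 0.684). After E. coli it measured 67.3, 93.6 and 73.9 CPM in neonates and 101, 112 and 98.2 in juveniles, which did not. The rise was 0.88 ± 0.15 in neonates (log2, adjusted p = 0.00689) and 1.44 ± 0.15 in juveniles (adjusted p = 1.03e-05). The age difference after E. coli was -0.41 ± 0.14 (adjusted p = 0.0587) and passed the test in 6 of 15 alternative analyses. Ahr, Maf and Rora each overlap an antisense or intergenic transcript on the opposite strand by 82 to 440 bases, so reads of both may be counted together if the counting did not use strand.

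Counted over the 9 genes, 5 rose in neonates (Il17a, Il22, Il1r1, Ahr and Maf), where 1.05% of all tested genes rose and 0.145% fell, and 4 did not pass the test. The neonatal count was 4 without neonatal E. coli library 1, 3 without neonatal E. coli library 2 or 3 or neonatal PBS library 3, and 2 without neonatal PBS library 1 or 2. In juveniles 9 rose, where 15.4% of all tested genes rose and 9.42% fell. Leaving aside Il17a and Il17f, which entered through the E. coli libraries, these counts were 4 and 7 of 7. The median log2 change over the genes was 1.01 in neonates and 2.07 in juveniles, and 0.88 and 1.51 without Il17a and Il17f, against -0.0027 and -0.012 over all genes tested. The lowest E. coli library exceeded the highest PBS library for 6 of 9 genes in neonates, as for 11.2% of all genes, and for 9 of 9 in juveniles, as for 20.6%. Without Il17a and Il17f these counts were 5 of 7 and 7 of 7. The 7 still include Il22, which had no juvenile PBS library above the filter level. The juvenile counts of 7 of 7 and the juvenile median of 1.51 are limited by this.

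**Figure D3:**
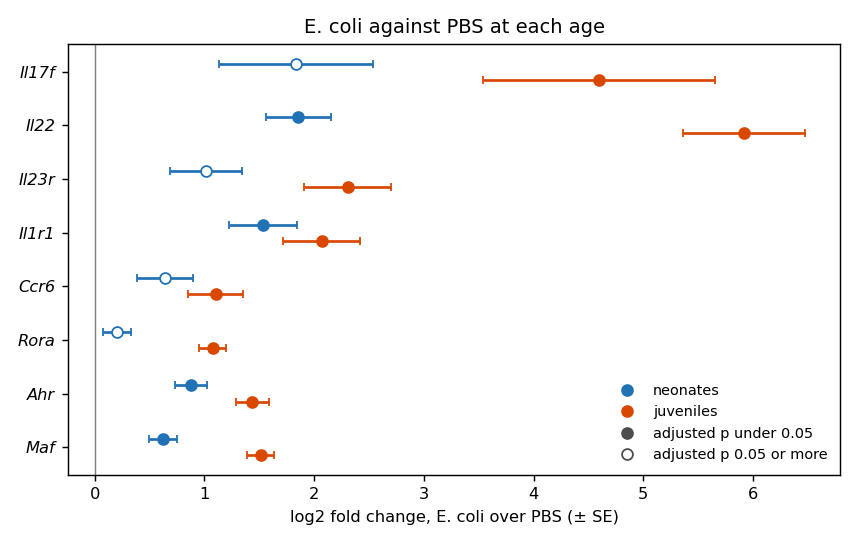
Log2 fold change of E. coli over PBS with SE bars for 8 of the genes, in neonates (blue) and juveniles (orange), with filled points where the adjusted p was under 0.05. Each juvenile point lies to the right of the neonatal one, and all juvenile points are filled. Juvenile Il17f and Il22 are fitted against 1 and 2 counts, and Il17a is left out because its PBS libraries held 0.

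The size of the response was compared between ages with an interaction term. For 3 of the 9 genes the neonatal log2 change was called smaller, and for none was it called larger. Of all tested genes 5.05% had a lower and 1.94% a higher neonatal log2 change. The difference of log2 changes, neonatal minus juvenile, was -0.87 ± 0.18 for Rora (adjusted p = 0.00872) and -0.89 ± 0.17 for Maf (adjusted p = 0.00715). For Il22 it was -4.06 ± 0.74 (adjusted p = 0.00491), a fitted value that rests on 2 counts in the juvenile PBS libraries. These 3 calls held in each of the 20 alternative analyses. For Il22, those without juvenile PBS library 2 left 0 counts in juvenile PBS, so the size of its difference could not be estimated there. Neonatal Il22 started higher and ended higher than juvenile Il22, the latter at the threshold, whereas neonatal Rora and Maf started lower and ended lower. For Il1r1 the difference was -0.53 ± 0.47 (adjusted p = 0.557), for Ccr6 -0.46 ± 0.36 (adjusted p = 0.487), for Ahr -0.56 ± 0.21 (adjusted p = 0.123), for Il23r -1.29 ± 0.53 (adjusted p = 0.157) and for Il17f -2.76 ± 1.43 (adjusted p = 0.278). For Il17a it could not be estimated.

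Between ages, 2 genes were higher in neonates after PBS (Il22 and Il23r) and 2 were lower (Rora and Maf), against 2.32% higher and 1.75% lower among all tested genes. After E. coli 1 was higher (Il22) and 2 were lower (Rora and Maf), against 6.42% and 11.3%. Il1r1 had a log2 difference of 1.14 ± 0.37 after PBS (adjusted p = 0.105) and of 0.61 ± 0.29 after E. coli (adjusted p = 0.166), and Ccr6 of 0.13 ± 0.27 (adjusted p = 0.86) and -0.34 ± 0.24 (adjusted p = 0.364).

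**Figure D4:**
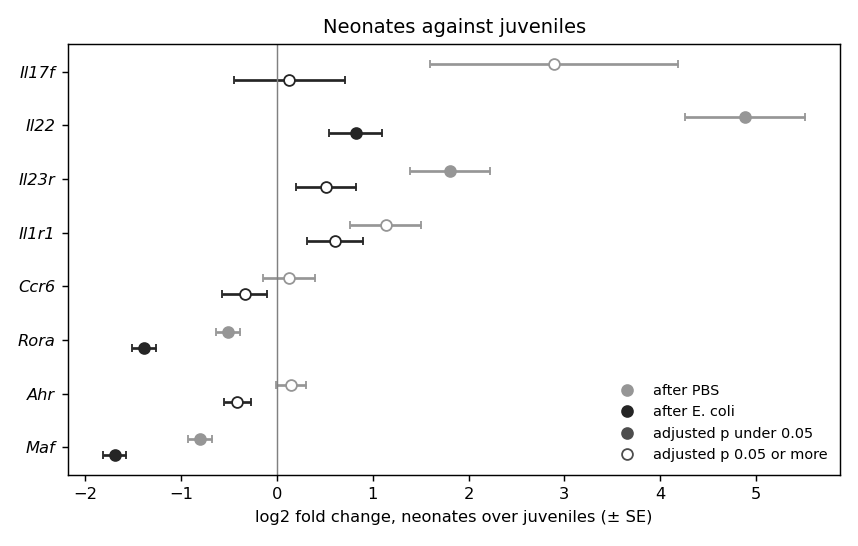
Log2 fold change of neonates over juveniles with SE bars for 8 of the genes, after PBS (grey) and after E. coli (black), with filled points where the adjusted p was under 0.05. Il22 lies above 0 and Rora and Maf below 0 with filled points under both exposures. Il17f and Il22 after PBS are fitted against 1 and 2 juvenile counts, and Il17a is left out because its PBS libraries held 0.

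Levels per kilobase of exon allow the genes to be set beside each other. In juvenile E. coli libraries Rora stood highest at 46.3 CPM per kilobase, followed by Maf at 29.0, Ahr at 16.9, Il22 at 6.61, Ccr6 at 5.01, Il23r at 3.32, Il1r1 at 3.07, Il17a at 2.27 and Il17f at 0.828. In neonatal E. coli libraries Il22, at 11.7, stood above Maf at 9.0 and close to Ahr at 12.7. In neonatal PBS libraries Il22 was at 3.25 CPM per kilobase, above Il23r at 2.37 and Il1r1 at 1.63, and in juvenile PBS libraries it was at 0.0990, below them at 0.665 and 0.736. The exon lengths are unions over the annotated transcripts, from 1110 bases for Il22 to 13071 for Rora, so alternative exons that are not used lower the value of a gene.

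The genes fell into patterns over the 12 libraries. These correlations describe libraries that share depth and group, so they carry the group differences given above. Il22 ran with Il23r (Pearson r = 0.949) and Il1r1 (r = 0.922), and Rora with Maf (r = 0.966), whereas Rora with Il22 had r = 0.105 and Maf with Il22 r = 0.178. Ahr was closest to Il17a (r = 0.969). Among 8000 other genes, those most like the mean of the cytokines were Gem (r = 0.974), Map3k8 (r = 0.974) and Cdkn1a (r = 0.956). Those most like Il23r were Kit, Tmem176a and Cd93 (r = 0.923, 0.911 and 0.904), and those most like Il1r1 were Tmem176a, Klrb1b and Runx3 (r = 0.924, 0.91 and 0.889). Rora was most like Neb, Icos and Itgb8 (r = 0.983, 0.982 and 0.981), Maf most like Ly86, Fmnl2 and Ptprj (r = 0.986, 0.983 and 0.98), Ahr most like Mxd1, Slamf1 and Eif1a (r = 0.968, 0.966 and 0.964) and Ccr6 most like Chst11, Fndc3b and Tns3 (r = 0.93, 0.912 and 0.911).

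Markers of other cells that make these products moved with some of the results. Of 10 listed γδ T cell genes 3 were in the table (Sox13, Blk and Cd163l1), and the receptor chains that define these cells were not analysed here. The 3 genes summed to 7.35 to 9.17 CPM after PBS and 9.60 to 11.5 CPM after E. coli in neonates, and to 2.64 to 5.04 CPM and 4.01 to 5.28 CPM in juveniles, with none at 0. Cd163l1, a scavenger receptor typical of IL-17-producing γδ T cells, was higher in neonates after PBS (log2 1.62 ± 0.30, adjusted p = 0.00671) and after E. coli (log2 1.65 ± 0.28, adjusted p = 0.000613), as Il22 was, and made up most of these sums. Blk did not pass the test between ages after PBS (1.11 CPM in neonates and 1.25 in juveniles) or after E. coli (2.0 and 1.45 CPM). Sox13 had 0.618 and 0.204 CPM after PBS and 0.565 and 0.73 CPM after E. coli in neonates and juveniles, too few counts to be tested. Of the 2 tested γδ genes, 0 were called between E. coli and PBS at either age, whereas Il22 rose at both. Of all tested genes 1.05% rose in neonates and 15.4% in juveniles. All 7 listed genes of type 3 innate lymphoid cells were in the table, and Nkx2-3 was at 0 in every library. Their sums ran from 284 to 292 CPM after PBS and 276 to 345 CPM after E. coli in neonates, and from 154 to 264 CPM and 424 to 577 CPM in juveniles, mostly from Il2rb, which T cells also express. Kit, one of the 7, was higher in neonates after PBS (log2 1.74 ± 0.35, adjusted p = 0.0103) and rose in juveniles (log2 1.44 ± 0.35, adjusted p = 0.00789), as Il23r did. Of the 4 genes of this list that were tested, Kit was the 1 called higher in neonates after PBS (all tested genes 2.32%). In juveniles all 4 rose (all tested genes 15.4%). After E. coli 1 of the 4 was lower in neonates and 0 were higher (all tested genes 11.3% and 6.42%). The 7 listed genes of fibroblasts and smooth muscle, cells that also express Il1r1, summed to 9.31 to 25.3 CPM after PBS and 9.96 to 21.6 CPM after E. coli in neonates, and to 5.42 to 8.93 CPM and 9.79 to 11.4 CPM in juveniles, where 2 and 1 of them were at 0. The part of these cells in the results for Il22, Il23r and Il1r1 was not tested.

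Other marker lists are given beside the transcription factors as a description, and not all of them moved in the same way. The 5 regulatory T cell genes, Foxp3 among them, summed to 1349 to 1462 CPM after PBS and 911 to 1369 CPM after E. coli in neonates, and to 1215 to 1448 CPM and 2462 to 4053 CPM in juveniles, with none at 0. The 8 genes of type 2 innate lymphoid cells, which depend on Rora, summed to 164 to 183, 148 to 222, 313 to 419 and 455 to 627 CPM in the same order, with none at 0. Klrg1, Il1rl1 and Gata3 made up most of the sum in juvenile E. coli libraries, with means of 216, 118 and 117 CPM. Of 10 monocyte and macrophage genes 9 were in the table, none at 0, and they summed to 138 to 264, 217 to 425, 165 to 352 and 338 to 656 CPM. The 7 dendritic cell and MHC class II genes, none at 0, summed to 115 to 173, 148 to 179, 213 to 334 and 474 to 574 CPM. Of these 7, 5 rose in juveniles, where 15.4% of all tested genes rose. After E. coli 6 were lower in neonates than in juveniles, where 11.3% of all tested genes were lower. The 5 endothelial genes, none at 0, summed to 272 to 308, 248 to 289, 227 to 243 and 224 to 243 CPM, mostly from Pecam1. In juveniles 3 of the 5 rose, Kdr (log2 3.53 ± 0.55), Cdh5 (1.98 ± 0.53) and Vwf (3.13 ± 0.89). Of the others 1 fell and 1 did not pass, where 15.4% of all tested genes rose and 9.42% fell. The mean of Pecam1 in juveniles went down, from 227 CPM after PBS to 187 CPM after E. coli. Immature T cell genes, 6 of 7 in the table and none at 0, summed to 214 to 274 CPM in juvenile and 36.6 to 84.5 CPM in neonatal E. coli libraries, with the PBS values given above. The part of these lists in the results for Rora, Ahr and Maf was not tested. Neutrophil genes, 10 of 10 in the table, summed to 0.278 to 0.653 and 0.165 to 1.15 CPM in neonatal and juvenile PBS libraries, where 4 and 7 of them were at 0. They summed to 8.04 to 48.9 and 6.10 to 17.5 CPM after E. coli, where 2 and 3 were at 0.

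Genes of the same pathway were read from fixed lists. Their counts stand against the shares of all tested genes given above, 1.05% higher and 0.145% lower in neonates and 15.4% higher and 9.42% lower in juveniles. Of 13 other Th17 transcription factors and co-factors, 6 rose in neonates, 7 did not pass and none fell (median log2 change 0.59), and 11 rose in juveniles with 2 not passing (median 1.31). In neonates Irf4 rose by 2.02 ± 0.21 on the log2 scale (adjusted p = 0.000263), Bhlhe40 by 1.21 ± 0.17 (adjusted p = 0.003), Batf by 1.06 ± 0.15 (adjusted p = 0.003) and Stat3 by 0.65 ± 0.10 (adjusted p = 0.00507). Irf4 and Batf open Th17 loci after T cell activation, and Stat3 carries the signal of IL-6 and IL-23. In juveniles Irf4 rose by 2.50 ± 0.21 (adjusted p = 2.13e-06), Bhlhe40 by 2.44 ± 0.18 (adjusted p = 7.08e-07), Nfkbiz by 1.46 ± 0.13 (adjusted p = 3e-06) and Hif1a by 1.31 ± 0.15 (adjusted p = 2.02e-05). The neonatal response was smaller than the juvenile one for Bhlhe40 (difference of log2 changes -1.23 ± 0.25, adjusted p = 0.00862), Hif1a (-1.02 ± 0.21, adjusted p = 0.00924), Ikzf3 (-0.86 ± 0.13, adjusted p = 0.00177) and Nfkbiz (-0.70 ± 0.18, adjusted p = 0.0309). After E. coli 6 of the 13 were lower in neonates than in juveniles and none higher, against 11.3% lower and 6.42% higher among all tested genes.

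Of 13 genes for receptors and signals that induce Th17 cells, 1 rose in neonates (Il21r, 0.59 ± 0.12, adjusted p = 0.0217) and 12 did not pass (median 0.05). In juveniles 7 rose, 4 fell and 2 did not pass (median 0.44), where 15.4% of all tested genes rose and 9.42% fell. Il12rb1, the chain that pairs with Il23r, rose there by 2.05 ± 0.19 (adjusted p = 3.63e-06), and its neonatal change of 0.65 ± 0.22 did not pass (adjusted p = 0.218). After E. coli Il12rb1 was lower in neonates by a log2 difference of -2.07 ± 0.19 (adjusted p = 3.59e-06), in contrast to Il23r itself, whose difference was 0.51 ± 0.31 (adjusted p = 0.291). Il2ra, part of the high-affinity IL-2 receptor and abundant on regulatory T cells, rose in juveniles by 1.63 ± 0.21 (adjusted p = 5.56e-05), and its neonatal change was -0.38 ± 0.21 (adjusted p = 0.506).

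Of 12 genes that restrain Th17 cells, 2 rose in neonates and 10 did not pass (median 0.14), and in juveniles 6 rose, 3 fell and 3 did not pass (median 0.42), beside 1.05% of all tested genes rising in neonates and 15.4% in juveniles. Socs3, the inhibitor of Stat3 signalling, rose by 2.38 ± 0.22 in neonates (adjusted p = 0.000222) and by 2.44 ± 0.23 in juveniles (adjusted p = 3.46e-06). Zfp36, which speeds decay of cytokine mRNA, rose by 1.22 ± 0.21 (adjusted p = 0.0079) and 1.32 ± 0.21 (adjusted p = 0.00038). Tbx21, the Th1 factor, rose in juveniles by 1.84 ± 0.22 (adjusted p = 3.32e-05), with a neonatal change of 0.72 ± 0.26 (adjusted p = 0.252). Foxp3 had a neonatal response lower by 1.52 than the juvenile one (difference of log2 changes -1.52 ± 0.25, adjusted p = 0.00287).

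Of 9 tested genes for other products of Th17 cells, 1 rose in neonates (median 0.48, all tested genes 1.05%) and 7 in juveniles (median 1.41, all tested genes 15.4%). That 1 gene, Cxcr6, a receptor of lung-resident T cells, rose by 1.05 ± 0.15 (adjusted p = 0.0031) and in juveniles by 1.11 ± 0.14 (adjusted p = 5.01e-05), while staying lower in neonates after PBS (log2 -1.32 ± 0.15, adjusted p = 0.000338) and after E. coli (-1.38 ± 0.14, adjusted p = 7.86e-06). Il10, a target of c-MAF, was lower in neonates after PBS (-2.09 ± 0.49, adjusted p = 0.0234) and after E. coli (-3.70 ± 0.37, adjusted p = 6.14e-06), as Maf was. Of 5 tested partners and targets of AHR, 1 rose in each age, and in both it was Tiparp, an AHR-induced repressor (0.58 ± 0.13, adjusted p = 0.0319 in neonates and 0.43 ± 0.13, adjusted p = 0.0221 in juveniles). The medians of this list were 0.05 and 0.08, and the shares over all tested genes are the same 1.05% and 15.4%.

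Of 12 tested receptor chains and relatives of IL-17, IL-22 and IL-1, 3 rose in neonates (median 0.42, all tested genes 1.05%), and in juveniles 5 rose and 1 fell (median 0.81, all tested genes 15.4% and 9.42%). The 3 in neonates were Il1a (2.90 ± 0.45, adjusted p = 0.0049), Il1b (2.14 ± 0.39, adjusted p = 0.0106) and Il1rn (2.79 ± 0.59, adjusted p = 0.0287), the ligands and the natural antagonist of the receptor encoded by Il1r1. The neutrophil genes, whose sums are given above, were higher in the same libraries, and their part in these 3 results was not tested. Il1rl1, the IL-33 receptor, was lower in neonates after PBS (-2.11 ± 0.35, adjusted p = 0.00383) and after E. coli (-2.55 ± 0.34, adjusted p = 8.28e-05). Of 6 tested relatives of the transcription factors none rose in neonates (median 0.5, all tested genes 1.05%) and 1, Mafg, rose in juveniles by 1.11 ± 0.17 (adjusted p = 0.000258, median of the list 0.15, all tested genes 15.4%).

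**Figure D5:**
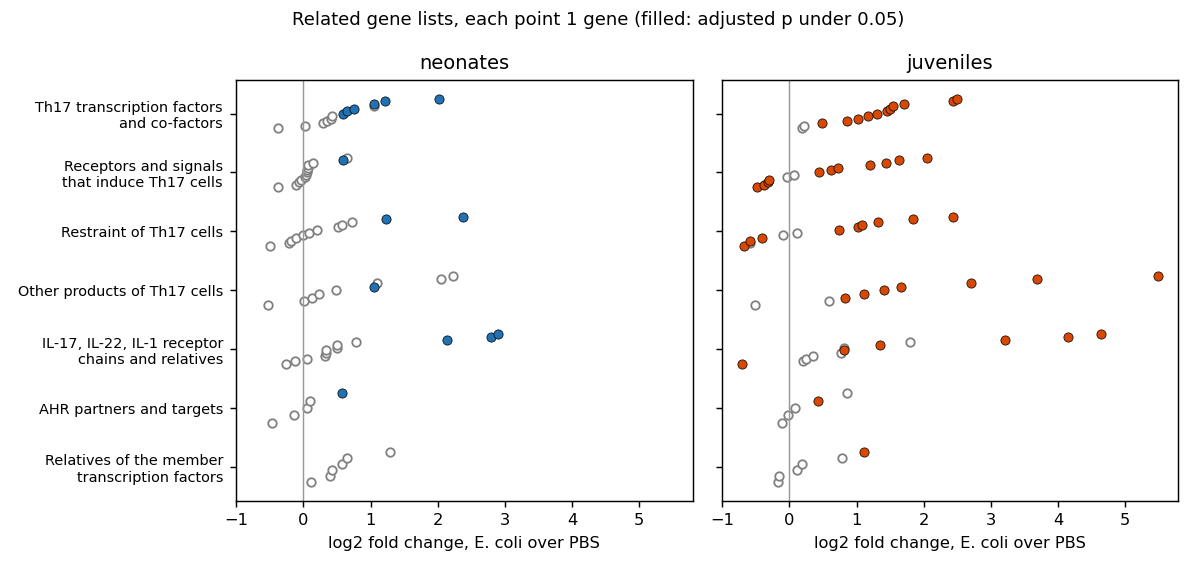
Log2 fold change of E. coli over PBS of each tested gene of the 7 related lists, in neonates (left) and juveniles (right), each point 1 gene, filled where the adjusted p was under 0.05. Of the 13 other Th17 transcription factors and co-factors 6 points are filled in neonates and 11 in juveniles.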

How the data were processed

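RNA from pooled lung CD4+ T cells was amplified to cDNA with an Ovation kit and sequenced as 100-base read pairs, per the labels' protocols. CASAVA 1.8.4, STAR and the build GRCm38 (mm10) are named in the submitters' processing notes. The deposited table holds raw counts per gene symbol for 12 libraries, made by the authors. For the counting, annotation and strand setting were not given in the sources used here.

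Counts were filtered with filterByExpr (minimum count 10, minimum total 15), which left 11062 genes with 99.92% of counts, and scaled by TMM. One model with 4 groups was fitted with edgeR 4.0.16 (quasi-likelihood test, R 4.3.3), with Benjamini-Hochberg adjustment over all tested genes and a threshold of 0.05. The contrasts were the response to E. coli in each age, the difference of the responses and the age difference under each exposure. SE is the log2 change divided by the square root of F. CPM used TMM-scaled totals. Folds with 1 to 3 counts in a group are given as ratios of counts with exact 95% intervals. The counts were summed over the libraries of a group, so these intervals leave out the spread between pools. The procedure was tested on simulated data. Only genes with higher counts were changed there, and all genes had a common spread, so that test does not cover genes with few counts such as the cytokines.

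Library totals of 6035445 to 8129983 counts put 1 to 3 counts at the limit of detection. Alternatives were DESeq2 1.42.0, limma 3.58.1 (voom), other scalings and filters, a replicate block, fits of the compared groups alone and leaving out each library. Leaving out neonatal PBS library 1 and juvenile PBS library 2 together was chosen after seeing the data.

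The 9 genes and all lists were chosen with earlier results of these data known, so none is independent support. Beyond the 9 genes, the text names, in each contrast, the 4 genes with the lowest p of each related list or some of these, and the 3 genes with the highest correlation to each pattern. Marker genes of other cells and Iltifb were added after their values were seen. Gene positions and exon lengths are from GENCODE M21, promoters from RefSeq (GRCm38.p6).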

Additional observations from a re-analysis of the deposited data

Results flagged for a closer look

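For 3 genes the response to E. coli differed between neonates and juveniles by a test of the difference itself (edgeR's quasi-likelihood test with Benjamini-Hochberg adjustment). The difference of log2 changes, neonatal minus juvenile, was -4.06 for Il22, -0.87 for Rora and -0.89 for Maf. The neonatal response was smaller for each of them. The Il22 value is fitted against 2 counts in the juvenile PBS libraries. With 3 libraries in each group, single libraries were not tested as standing apart.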

How the results depend on the processing

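The call of the 9 genes in juveniles, of Il22 and Ahr in neonates, of Il22 and Maf between ages after PBS and of Rora and Maf after E. coli held in all alternatives run for them. The number of genes called in neonates, 132, became 238 with DESeq2, 312 with limma voom and 320 with only the groups compared, and 87.9% of calls were higher against 68.9% with voom and 71.9% with only the groups compared. For the age difference after PBS, 451 became 729, 927 and 280 in the same order. With voom the juvenile count of 2747 became 4480, the difference of responses 774 became 2300 (27.8% higher became 40.2%) and the age difference after E. coli 1964 became 3810. Of the 9 genes, 3 differed by age after E. coli, and 5 did with voom and with only the groups compared. Leaving out 1 library gave 55 to 126 genes called in neonates, 1656 to 3204 in juveniles, 368 to 1553 for the difference, 177 to 671 for age after PBS and 1108 to 2063 after E. coli. Among the 9 genes these ranges were 2 to 4, 9 to 9, 3 to 4, 2 to 5 and 2 to 3. The Il17f age difference after E. coli (log2) turned to -0.028 with voom and ran from -0.26 (without juvenile E. coli library 1) to 0.51 with 1 library left out, being -0.16 without neonatal E. coli library 2. That of Ccr6 after PBS ran from -0.28 (without neonatal PBS library 3) to 0.33. The cause was not tested. Library numbers showed no clear pairing of the samples. The 18 same-numbered pairs had correlations of -0.176 to 0.223, 2 of them over 0.1, and differently numbered pairs -0.247 to 0.217. Of 12 libraries 1 correlated best with its own number. With 3 libraries in each group a weak pairing could be missed. With a replicate block 106, 2568, 645, 416 and 1780 genes were called, with 5, 9, 3, 4 and 3 of the 9. Il22 after E. coli was then lost between ages (adjusted p = 0.0745) and Ahr gained (adjusted p = 0.0253). Without neonatal PBS library 1 and juvenile PBS library 2, 4, 9, 4, 3 and 4 of the 9 genes were called. Il17f gave no value under the strict filter. Counts of 0 to 3 limit Il17a, Il17f and juvenile Il22 after PBS.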
